A study of Mus musculus with 2 samples.

Results

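Transcripts of 10 antioxidant genes, 9 of them targets of the transcription factor NRF2 and the tenth its own gene Nfe2l2, were followed through the cells of adherent mouse bone marrow. The genes are Hmox1, Gclm, Gclc, Srxn1, Nqo1, Txnrd1, Slc7a11, Gsr, Prdx1 and Nfe2l2, and they are 10 of the 32285 genes in the deposited matrices. They were selected on measured values of these same libraries, namely their higher levels in stromal and macrophage cells of the knockout library. The comparison of the libraries in those cells is therefore given below as a description, with no test.

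Marrow stromal cells were prepared by plating flushed femur and tibia marrow of C57BL/6J mice and washing off non-adherent cells after 48 h, with no drug or osteogenic medium. Both groups carried floxed alleles of Slc31a1, which encodes a plasma membrane copper importer. The WT group had Slc31a1flox/flox without Cre, and the cKO group was Prrx1-Cre+/-; Slc31a1flox/flox, from the same litters. Prrx1-Cre is active in limb mesenchyme, so blood-derived cells such as macrophages are not its target. Each group was 1 library made by droplet capture on the 10x Genomics platform, in which every captured mRNA molecule receives its own identifier (UMI) and is counted near its 3′ end. The age of the mice and the number of animals behind each library are not given in the sources used here. With 1 library per group, every difference below is between 2 libraries and has no replicate check.

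The WT library held 152398639 UMIs in 9125 barcodes and the cKO library 126031142 UMIs in 6140 barcodes. Filtering left 7637 WT and 5263 cKO cells, at median depths of 9706 and 9710 UMIs, and 6 barcodes among the kept cells occurred in both libraries. The labels name the cells mesenchymal stem cells, yet 3726 WT and 1417 cKO cells were mesenchymal-like and 2677 WT and 2454 cKO cells were macrophage-like by marker genes. Slc31a1 was 42.4 CPM (UMIs of a gene scaled to a total of 1000000 UMIs in its cell class and library) in WT against 14.3 CPM in cKO mesenchymal-like cells, a ratio of 0.338. It was 70.1 CPM in WT against 72.6 CPM in cKO macrophage-like cells.

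NRF2 is held at low levels by KEAP1, an adaptor that presents it to a ubiquitin ligase, until oxidants or electrophiles modify KEAP1. Stabilised NRF2 then pairs with small MAF proteins on antioxidant response elements, DNA sites that the haem-sensitive repressor BACH1 also occupies. The targets rebuild glutathione and thioredoxin, reduce quinones and peroxides, and break down haem, which macrophages of the marrow take up with old red cells.

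Promoter sequence is shown because these genes are grouped by a shared DNA element, whose core letters can be read in it. RefSeq promoter windows of GRCm38.p6, running from 250 bases before to 50 bases after a gene's start, were matched for 7 of the 10 genes. The core TGACNNNGC, searched on both strands (GCNNNGTCA on the other), was in 12.4% of 32851 mouse windows. The related TGANTCAGC (GCTGANTCA on the other strand), which can overlap the core, was in 1.19%, and either was in 13.05%. Of the 7 matched genes, 5 had at least 1 match, namely Nfe2l2, Srxn1, Gclm, Prdx1 and Txnrd1, and the windows of Slc7a11 and Nqo1 had none of these letters. Counted by window, 5 of 9 had a match. Sequence more than 250 bases before a start was not searched, so a gene without a match may have the element elsewhere. The 4 target genes with a match are printed 5′ to 3′ on the gene's strand, with each match in capitals.
Srxn1 (chr2:152105274-152105573, + strand): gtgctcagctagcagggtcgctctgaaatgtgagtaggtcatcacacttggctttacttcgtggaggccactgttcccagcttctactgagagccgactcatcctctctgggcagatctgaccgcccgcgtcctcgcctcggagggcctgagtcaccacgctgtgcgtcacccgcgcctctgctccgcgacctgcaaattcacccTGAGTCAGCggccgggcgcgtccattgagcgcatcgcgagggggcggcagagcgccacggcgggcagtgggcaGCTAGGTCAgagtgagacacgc
Gclm (chr3:122245307-122245606, + strand): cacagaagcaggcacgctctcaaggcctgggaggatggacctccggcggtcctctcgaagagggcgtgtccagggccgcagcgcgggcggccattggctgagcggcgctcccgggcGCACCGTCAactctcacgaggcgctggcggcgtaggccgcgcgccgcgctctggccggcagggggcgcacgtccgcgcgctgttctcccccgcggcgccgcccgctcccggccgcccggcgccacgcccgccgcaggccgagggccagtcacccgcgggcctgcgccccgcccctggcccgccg
Prdx1 (chr4:116685349-116685648, + strand): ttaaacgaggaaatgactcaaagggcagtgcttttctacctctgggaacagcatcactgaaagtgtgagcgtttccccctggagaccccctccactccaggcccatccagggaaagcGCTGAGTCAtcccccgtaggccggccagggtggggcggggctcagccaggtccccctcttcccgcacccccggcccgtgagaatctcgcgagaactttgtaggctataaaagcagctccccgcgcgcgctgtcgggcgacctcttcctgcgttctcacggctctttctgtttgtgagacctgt
Txnrd1 (chr10:82858956-82859255, + strand): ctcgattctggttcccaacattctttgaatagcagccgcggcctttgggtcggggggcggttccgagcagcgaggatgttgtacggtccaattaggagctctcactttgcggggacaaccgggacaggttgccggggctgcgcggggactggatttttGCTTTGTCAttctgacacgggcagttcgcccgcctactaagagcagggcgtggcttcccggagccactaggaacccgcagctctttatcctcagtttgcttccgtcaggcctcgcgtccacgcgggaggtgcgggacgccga
Srxn1 had TGAGTCAGC beginning 45 bases before the start, and a reverse match at base 29 after it. The match of Gclm began 134 bases before the start, that of Prdx1 133 bases and that of Txnrd1 92 bases. The Txnrd1 window is 1 of 3 listed for that gene, and the other two had no match. A match is a description of letters, not of NRF2 binding, which was not measured here.

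Hmox1 encodes haem oxygenase, which opens the haem ring and releases iron. It spans chr8:75093621-75100589 on the + strand of GRCm38. In mesenchymal-like cells it was 83.3 CPM in WT (95% interval 81.5 to 85.1, 8636 UMIs) against 121 CPM in cKO (119 to 123, 10088 UMIs), a cKO over WT ratio of 1.45 (1.412 to 1.496). In macrophage-like cells it was 480 CPM in WT (472 to 488) against 692 CPM in cKO (681 to 703), a ratio of 1.44 (1.41 to 1.48). The level was thus several-fold higher in macrophage-like than in mesenchymal-like cells of either library. In summed UMIs the ratios between libraries were nearly equal: the macrophage ratio over the mesenchymal ratio was 0.992 (0.956 to 1.03). With equal weight per cell the Hmox1 ratio was 1.26 in mesenchymal-like and 1.42 in macrophage-like cells, so the near equality depended on the processing. All these intervals cover counting error only.

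The glutathione genes differed between the cell classes. Gclc and Gclm encode the catalytic and modifier subunits of glutamate-cysteine ligase, the enzyme that commits cysteine to glutathione. Gclm spans chr3:122245557-122270732 and Gclc chr9:77754535-77794485, both on the + strand. In mesenchymal-like cells Gclm was 52.4 CPM in WT against 67.4 CPM in cKO (ratio 1.28, 1.24 to 1.33), and Gclc was 49.5 CPM against 57.9 CPM (ratio 1.17, 1.13 to 1.22). In macrophage-like cells Gclm was 150 CPM in WT against 261 CPM in cKO (ratio 1.74, 1.67 to 1.80). Gclc there was 82.1 CPM against 117 CPM (ratio 1.43, 1.35 to 1.51). Both subunits were higher in the cKO library in both classes, and both had the larger ratio in macrophage-like cells.

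Slc7a11 encodes the cystine transporter subunit that supplies cysteine for glutathione, and Gsr encodes glutathione reductase, which recycles it. Slc7a11 spans chr3:49892526-50443614 on the - strand and Gsr chr8:33652523-33698163 on the + strand. In mesenchymal-like cells Slc7a11 was 14.7 CPM in WT against 14.5 CPM in cKO (ratio 0.988, 0.915 to 1.07), and Gsr was 61.1 CPM against 60.4 CPM (ratio 0.989, 0.953 to 1.03). In macrophage-like cells Slc7a11 was 5.42 CPM in WT (159 UMIs) against 11.1 CPM in cKO (255 UMIs), a ratio of 2.05 (1.67 to 2.51). Gsr there was 96.7 CPM against 134 CPM, a ratio of 1.38 (1.31 to 1.46). For this pair the libraries differed in macrophage-like cells beyond counting error, and in mesenchymal-like cells each interval included 1. Slc7a11 overlaps several annotated pseudogenes and an antisense transcript, and Gclm a pseudogene on its strand, so reads of those genes could be split or shared.

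Txnrd1, Srxn1 and Prdx1, the 3 members that serve the thioredoxin system, were higher in cKO in both classes. They lie on the + strand, Txnrd1 at chr10:82833951-82897712, Srxn1 at chr2:152105516-152111376 and Prdx1 at chr4:116685544-116700822. Txnrd1, the cytosolic thioredoxin reductase, was 169 CPM in WT against 200 CPM in cKO mesenchymal-like cells (ratio 1.18, 1.153 to 1.203). In macrophage-like cells it was 206 CPM against 249 CPM (ratio 1.21, 1.17 to 1.25). In 106 WT and 172 cKO cells chosen instead by a Csf1r UMI and no Col1a1 UMI, the Txnrd1 ratio was 0.849. Srxn1, sulfiredoxin, which repairs over-oxidised peroxiredoxins, was 29.4 CPM in WT against 40.2 CPM in cKO mesenchymal-like cells (ratio 1.37, 1.30 to 1.44). Srxn1 in macrophage-like cells was 48.4 CPM against 77.2 CPM (ratio 1.60, 1.49 to 1.71). Prdx1, a peroxiredoxin that removes hydrogen peroxide, was 448 CPM against 518 CPM in mesenchymal-like cells (ratio 1.16, 1.14 to 1.17) and 1186 CPM against 1548 CPM in macrophage-like cells (ratio 1.31, 1.29 to 1.32). Of these, Srxn1 had the largest ratio in both classes. Txnrd1 lies across Eid3 on the same strand, so its reads could be shared with that gene.

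Nqo1, the quinone reductase often used as a readout of NRF2, was at low levels throughout. It spans chr8:107388225-107403206 and Nfe2l2 chr2:75675513-75704641, both on the - strand. In mesenchymal-like cells it was 4.90 CPM in WT (508 UMIs) against 8.68 CPM in cKO (723 UMIs), a ratio of 1.77 (1.58 to 1.99). Among macrophage-like cells 41 WT and 42 cKO UMIs gave 1.40 against 1.83 CPM, a ratio of 1.31 (0.830 to 2.06). Nqo1 was thus found mainly in mesenchymal-like cells, and it stayed under the 10 CPM used below for counts in both classes. Nfe2l2 itself was 104 CPM in WT against 107 CPM in cKO mesenchymal-like cells (ratio 1.02, 0.994 to 1.05). In macrophage-like cells it was 277 CPM in WT against 234 CPM in cKO (ratio 0.846, 0.817 to 0.876). The NRF2 transcript was therefore lower in the cKO library in the class where the most target transcripts were higher.

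**Figure D1:**
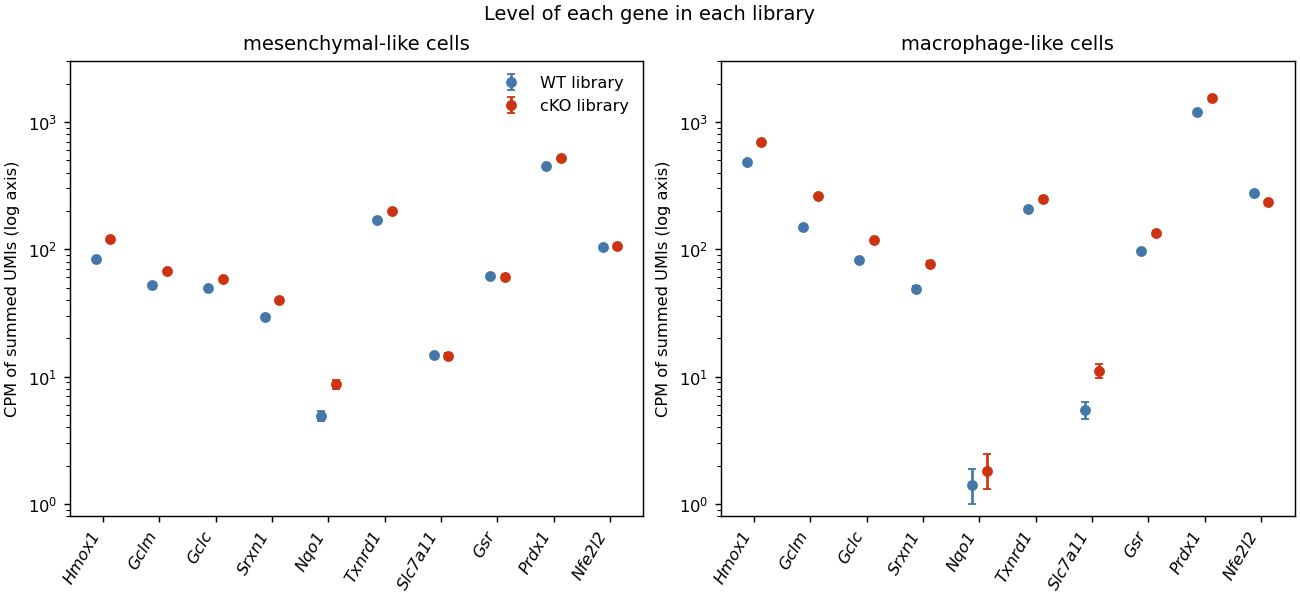
Level of each of the 10 genes in CPM of summed UMIs (log axis) in mesenchymal-like (left) and macrophage-like cells (right). Points are 1 library each, WT in blue and cKO in red, and bars are exact Poisson 95% intervals, often smaller than the points. Hmox1 lies at 83.3 against 121 CPM on the left and at 480 against 692 CPM on the right, and Nfe2l2 on the right is the gene whose cKO point is lower.

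Counted over genes reaching 10 CPM in at least 1 library, 3 of 9 measured members (Hmox1, Srxn1 and Gclm) were at least 1.2-fold higher in cKO mesenchymal-like cells, where 3.29% of 8944 genes were. In macrophage-like cells 8 of 9 were, where 7.32% of 8858 genes were. Slc7a11 was measured there through its cKO level alone. The median log2 ratio of the measured members was 0.22 against -0.03 for all genes in mesenchymal-like cells, and 0.51 against -0.02 in macrophage-like cells. Because the members were chosen on this contrast, these counts and medians describe the choice and support nothing further.

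**Figure D2:**
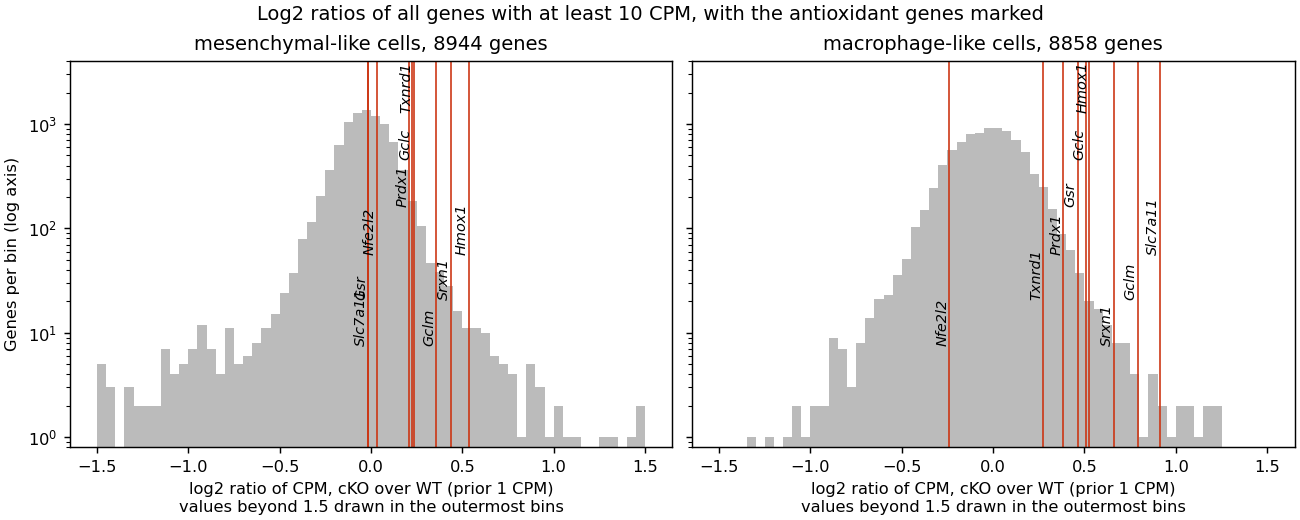
Histograms of the log2 ratio of CPM, cKO over WT, for all genes reaching 10 CPM in at least 1 library (grey, genes per bin on a log axis), in mesenchymal-like (left, 8944 genes) and macrophage-like cells (right, 8858 genes). Red lines mark the measured antioxidant genes: on the left they run from about no difference (Slc7a11, Gsr) to Hmox1, and on the right Nfe2l2 lies below 0 and the other 8 above.

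Macrophage-like cells were made up of 3 clusters, which were made without the 10 genes among the variable genes. The genes were chosen for higher cKO levels in these same cells, so the ratios by cluster are a description and no separate check. Cluster 0 was led by Cx3cr1, C1qa and Slc40a1 (1255 WT and 1109 cKO cells), cluster 3 by Gpnmb, Cd36 and Mmp12 (891 and 808), and cluster 4 by Ccl2 and cell cycle genes (531 and 537). Hmox1 was highest in cluster 0, at 614 CPM in WT against 878 CPM in cKO, followed by cluster 3 at 489 against 715 CPM and cluster 4 at 348 against 525 CPM. The order of the clusters was the same in both libraries, and each cKO level was above the WT level of its own cluster, by a ratio of 1.43 to 1.51. Gclm ratios were 1.70 to 1.79, Gclc 1.36 to 1.47, Srxn1 1.56 to 1.62, Gsr 1.37 to 1.43 and Slc7a11 1.87 to 2.46. Txnrd1 had ratios of 1.37 in cluster 0, 1.22 in cluster 3 and 1.12 in cluster 4. Prdx1 had 1.44, 1.27 and 1.25 in the same order. Nfe2l2 was lower in cKO in all 3, with ratios of 0.897, 0.864 and 0.801. Members at least 1.2-fold higher were 8 of 9 in cluster 0 (14.8% of all genes there), 7 of 8 in cluster 3 (8.56%) and 6 of 8 in cluster 4 (9.93%). In cluster 0 Slc7a11, at 7.97 CPM in WT, was measured through its cKO level alone (16.1 CPM), and 7 of the 8 genes reaching 10 CPM in both libraries were higher by that fold.

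Mesenchymal-like cells were less alike between libraries. Most WT cells came from a shallow cluster of the joint clustering (cluster 1, 1975 of 3726 cells) and most cKO cells from a deep one (cluster 2, 816 of 1417), and median depth was 13945.5 UMIs in WT against 61951 in cKO. Re-clustering gave 4 states with at least 100 cells in each library. State 0 was shallow and led by macrophage transcripts (1405 WT and 186 cKO cells). State 1 was led by Cxcl14, Pdlim2 and Mustn1 and took no state name (739 and 461). Tagln and Cnn1, markers of myofibroblasts, were also among its leading genes. State 2 was cycling-like (490 and 381) and state 3 pre-osteoblast-like by Ibsp and Slc13a5 (322 and 315).

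The states are parts of the class in which the genes were chosen, so higher ratios in them are no separate check. Hmox1 was higher in cKO in all 4 states and most so in the pre-osteoblast-like state. Its levels in WT and cKO were 137 against 196 CPM in state 0 (ratio 1.44, 1.31 to 1.57), 69.3 against 99.3 CPM in state 1 (1.43, 1.36 to 1.51), 52.1 against 71.3 CPM in state 2 (1.37, 1.28 to 1.46) and 116 against 195 CPM in state 3 (1.68, 1.60 to 1.77). The interval of state 3 lay above those of the other states. Nqo1 in state 3 was 5.36 CPM in WT against 12.3 CPM in cKO, a ratio of 2.29 (1.81 to 2.92). In states 1 and 2 the Nqo1 ratio was 1.69 (1.36 to 2.10) and 1.41 (1.13 to 1.75), so its interval in state 3 overlapped the first and not the second. Gclc ratios were 1.24, 1.25 and 1.30 in states 1, 2 and 3, and 1.01 (0.870 to 1.17) in state 0. Gsr had ratios of 1.02 to 1.12 within the 4 states and 0.989 over all mesenchymal-like cells, which also include smaller states. State 0 made up 37.7% of WT and 13.1% of cKO mesenchymal-like cells. State 4, a smaller one led by the neutrophil transcripts Retnlg, Ltf and Ngp, held 300 WT and 18 cKO cells. The part of these proportions in the Gsr ratio was not tested. Slc7a11 was on both sides of 1, from 0.866 to 1.13, and Nfe2l2 from 0.965 to 1.07. Members at least 1.2-fold higher were 4 of 9 in state 0 (11.8% of all genes), 4 of 9 in state 1 (5.29%), 4 of 9 in state 2 (4.98%) and 7 of 10 in state 3 (6.84%). In state 3 Nqo1 was measured through its cKO level alone, and without it 6 of 9 were higher by that fold.

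**Figure D3:**
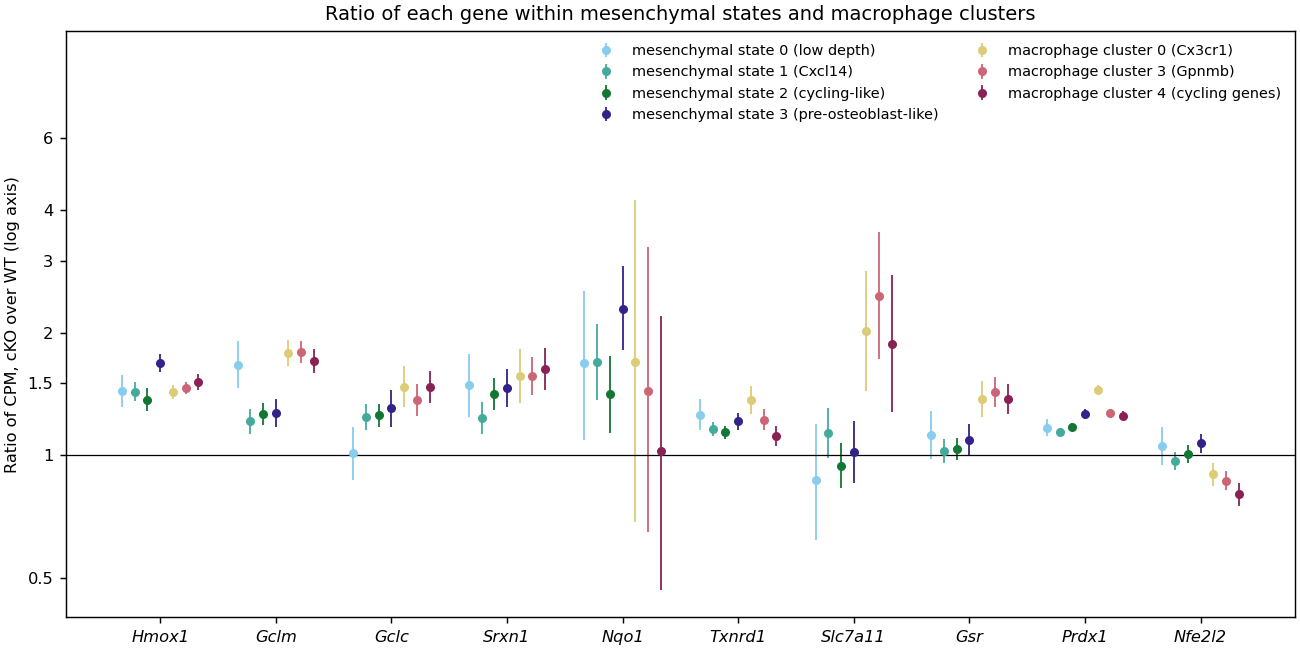
Ratio of CPM, cKO over WT (log axis), of each gene in 4 mesenchymal states and 3 macrophage clusters (colours), with exact conditional binomial 95% intervals as bars. Hmox1 points lie between 1.37 and 1.68 in all 7 groups of cells, Slc7a11 and Gsr are higher in macrophage clusters than in mesenchymal states, and Nfe2l2 lies under 1 in the 3 macrophage clusters.

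Depth and transcripts of other cells also differed between the libraries. In mesenchymal-like cells with at least 20000 UMIs (1683 WT and 1137 cKO), Hmox1 had a ratio of 1.57, Srxn1 1.38 and Gclm 1.28. Below that depth Hmox1 was 131 CPM in WT against 187 CPM in cKO, a ratio of 1.43. In macrophage-like cells of at least 20000 UMIs the Hmox1 ratio was 1.68. The 13 macrophage markers were all above 0 in mesenchymal-like cells and all lower in cKO, with a summed level of 435 CPM in WT against 218 CPM in cKO, or 3.53% and 1.89% of their level in macrophage-like cells. Taking those shares of the macrophage level away left Hmox1 at 66.3 CPM in WT against 108 CPM in cKO mesenchymal-like cells, a ratio of 1.63. In the other direction the 12 mesenchymal markers summed to 1188 CPM in WT against 1043 CPM in cKO macrophage-like cells, 7.13% and 6.92% of their mesenchymal level. Taking that away left ratios of 1.44 for Hmox1, 1.75 for Gclm and 2.31 for Slc7a11. Neutrophil markers in macrophage-like cells summed to 401 CPM in WT and 486 CPM in cKO, with 10 of 12 higher and none at 0. Osteoclast markers there summed to 107 and 137 CPM, 0.539% and 0.924% of their own level, with 7 of 10 higher and none at 0. In mesenchymal-like cells neutrophil markers summed to 575 CPM in WT and 201 CPM in cKO, with 12 of 12 lower, and endothelial markers to 37.0 and 19.1 CPM, with 10 of 10 lower and none of either list at 0. Their part in the result was not tested.

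Shares of cells with a UMI were compared after thinning each cell to 5000 UMIs, which left out 971 WT and 147 cKO mesenchymal-like cells and 626 and 822 macrophage-like cells. Hmox1 was found in 81.1% (79.4 to 82.8) of WT and 87.9% (86.2 to 89.4) of cKO macrophage-like cells, and cells with at least 3 Hmox1 UMIs made up 38.9% and 50.3%. Gclm was found in 47.9% (45.7 to 50.1) and 65.3% (62.9 to 67.6), and Nfe2l2 in 72.7% (70.7 to 74.6) and 65.8% (63.5 to 68.1). In mesenchymal-like cells Hmox1 was found in 35.2% (33.4 to 37.0) and 38.9% (36.2 to 41.6), and Srxn1 in 12.7% (11.4 to 14.0) and 17.6% (15.6 to 19.8). Without thinning the Hmox1 shares were 90.6% and 92.0% in macrophage-like and 69.6% and 89.3% in mesenchymal-like cells. As a guide to free RNA, neutrophil-like cells, thinned alike, had Hmox1 in 12.9% and 13.7%. The shares were 0% and 0% in B cell-like cells (18 WT and 11 cKO). In T or NK cell-like cells (14 and 18) they were 21.4% and 5.56%. Endothelial-like cells had 36.7% and 46.2%, so other classes gave no single background level. In mesenchymal-like cells the intervals of the libraries overlapped for Hmox1, Gclc, Slc7a11, Gsr and Nfe2l2. In macrophage-like cells they overlapped for Nqo1, Slc7a11 and Prdx1. For the other members of these classes they did not overlap. Such intervals count cells within a library and hold no spread between animals or cultures.

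Other classes had patterns of their own. In neutrophil-like cells (313 WT and 334 cKO, median 6857 and 8947.5 UMIs) Gsr was 738 CPM in WT against 783 CPM in cKO, above its level in every other class of either library. Slc7a11 was 37.3 CPM against 61.3 CPM there, a ratio of 1.64 (1.28 to 2.12), while Hmox1 was 26.3 against 26.4 CPM. Nfe2l2 was 218 CPM in WT against 192 CPM in cKO, a ratio of 0.880 (0.785 to 0.987), and Prdx1 had a ratio of 0.830 (0.704 to 0.979). Neutrophil-like cells had 3 of 9 measured members at least 1.2-fold higher, where 10.9% of all genes were. One of them, Srxn1, was measured through its cKO level alone (8.25 CPM in WT, 10.6 CPM in cKO, ratio interval 0.727 to 2.31). In osteoclast-like cells (31 WT and 79 cKO) the ratio was 2.18 (1.40 to 3.52) for Gclc, 1.67 (1.34 to 2.10) for Txnrd1 and 1.51 (1.14 to 2.01) for Hmox1. There 7 of 8 measured members were at least 1.2-fold higher, where 31.2% of all genes were, so a fold of that size was common among these few cells. In a cluster called endothelial-like, which was also led by the immunoglobulin transcripts Igha and Jchain (237 WT and 92 cKO cells), Hmox1 was 119 CPM in WT against 110 CPM in cKO and the ratio was 1.22 (1.04 to 1.43) for Gclm. It had 3 of 9 members at least 1.2-fold higher, where 15.1% of all genes were, and Slc7a11 among them was measured through its cKO level alone (9.14 CPM in WT, 12.6 CPM in cKO). Nfe2l2 there had a ratio of 0.810 (0.695 to 0.944).

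**Figure D4:**
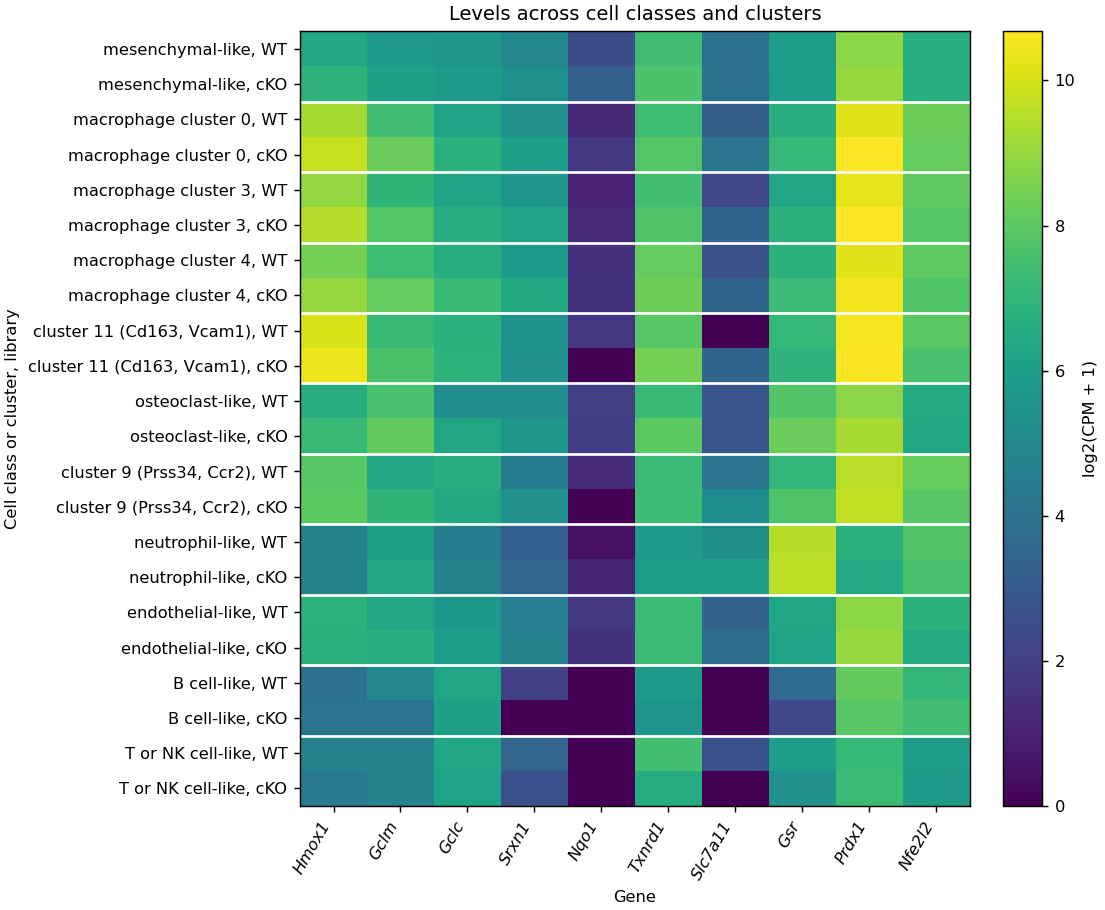
Levels of the 10 genes as log2(CPM + 1) (colour) in 11 cell classes or clusters, with the WT and cKO library of each as neighbouring rows. Gsr is brightest in neutrophil-like cells, Hmox1 and Prdx1 in the macrophage clusters and the Cd163 cluster, and B cell-like and T or NK cell-like rows rest on few UMIs.

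The members did not share 1 pattern across cell types. Over 20 profiles (10 classes, clusters or states with at least 100 cells in each library, times 2 libraries) Pearson's r of log2 levels was 0.913 for Srxn1 with Txnrd1, 0.908 for Srxn1 with Prdx1 and 0.876 for Hmox1 with Prdx1. It was -0.759 for Nqo1 with Nfe2l2 and -0.692 for Slc7a11 with Prdx1 in log2 levels. Profiles of 1 library share capture and depth, so these values are descriptions with no test. The mean standardised level of the 10 genes was highest in macrophage cluster 0 of cKO (0.937) and lowest in neutrophil-like cells of WT (-0.848), and in each of the 10 pairs it was higher in cKO. The pairs include 4 mesenchymal states and 3 macrophage clusters, cells in which the genes were chosen for higher cKO levels. In those pairs the direction describes the choice. The other pairs were neutrophil-like cells, a cluster led by Prss34, and a shallow unnamed cluster led by Cnn1 (median 2679 UMIs in WT and 2354 in cKO). Members with a ratio interval above 1, and below 1, were 3 and 2 in neutrophil-like cells. They were 5 and 1 in the Prss34 cluster, and 1 and 0 in the shallow cluster. Among 11177 genes the 5 whose levels followed the mean standardised level most closely were 2610001J05Rik (r = 0.938), Arf6 (0.933), Tex261 (0.922), Skil (0.918) and Nr2c2ap (0.916).

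Regulators of NRF2 went both ways. Of 13 measured in mesenchymal-like cells, 1 was at least 1.2-fold higher and 1 lower (3.29% and 6.18% of all genes were), with a median log2 ratio of -0.06. Of 14 in macrophage-like cells, 3 were higher and 2 lower (7.32% and 11.7% of all genes were), with a median of -0.07. Maff, which encodes a small MAF partner, had ratios of 1.39 in mesenchymal-like and 1.44 in macrophage-like cells, and Mafk had 1.35 in macrophage-like cells. Maff in macrophage-like cells was measured through its cKO level alone (7.67 CPM in WT, 11.02 CPM in cKO). The others past that fold in macrophage-like cells were Sqstm1 (1.23) and Btrc (0.796), named after their values were seen. Bach1, the repressor, was 67.0 CPM in WT against 52.5 CPM in cKO mesenchymal-like cells (ratio 0.782, 0.753 to 0.813) and 144 against 134 CPM in macrophage-like cells (ratio 0.925). Its relative Bach2 had ratios of 0.838 and 0.728. Keap1, named after its values were seen, was 35.6 against 34.1 CPM in mesenchymal-like cells and 54.3 against 49.2 CPM in macrophage-like cells. Bach1 was the 1 regulator of 13 past 1.2-fold lower in mesenchymal-like cells, where 6.18% of all genes were. A count of 1 does not set the list apart from that share. Nfe2l2 and Keap1 differed there by less than 1.2-fold. The part of any regulator in the differences of the targets was not tested.

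Other NRF2 targets, from a list that leaves out the 10 genes, were more often slightly higher than strongly so. In mesenchymal-like cells 16 of 21 measured targets had a ratio above 1 and 2 reached 1.2, or 9.52% where 3.29% of all genes did. In macrophage-like cells 17 of 19 were above 1 and 4 reached 1.2, or 21.1% where 7.32% of all genes did. The share of all genes above 1 was not counted. The median log2 ratio of the targets was 0.12 in mesenchymal-like cells, against -0.03 for all genes. In macrophage-like cells it was 0.13 against -0.02. The targets past 1.2-fold in mesenchymal-like cells were Abcc4, an exporter of organic anions (ratio 1.24), and Cbr3, a carbonyl reductase (1.23), and Ftl1, ferritin light chain, had 1.19. In macrophage-like cells Akr1b8, an aldo-keto reductase, had a ratio of 1.55, Gstm1, a glutathione transferase, 1.32 and Taldo1, transaldolase of the pentose phosphate pathway, 1.28. Akr1b8 was measured through its cKO level alone (8.63 CPM in WT, 13.4 CPM in cKO).

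Neighbouring pathways were described from lists in the same way. In mesenchymal-like cells 3.29% of all genes were at least 1.2-fold higher in cKO and 6.18% lower. In macrophage-like cells 7.32% were higher and 11.7% lower. With lists this short, a count of 1 or 2 does not set a list apart from those shares. Of the 13 measured glutathione genes in mesenchymal-like cells 1 reached 1.2-fold, Gss, glutathione synthetase, from 28.5 CPM in WT to 35.9 CPM in cKO (ratio 1.26). Of 10 in macrophage-like cells 2 did, Glrx, glutaredoxin (1.48), and Gpx1, a glutathione peroxidase (1.22), while Gpx3 had ratios of 0.846 and 0.847 in the 2 classes. Of 12 thioredoxin genes none reached 1.2-fold higher in mesenchymal-like cells and Txnip, an inhibitor of thioredoxin, was lower (0.665), and in macrophage-like cells 2 were higher, led by Txn2, mitochondrial thioredoxin (1.25), and Prdx4 was lower (0.799). Haem genes had 0 of 9 and 1 of 10 past 1.2-fold, the latter Alas1, the entry enzyme of haem synthesis (1.22). ATF4 targets, which include amino acid genes that can share regulation with Slc7a11, had 0 of 13 in mesenchymal-like cells and 1 of 9 in macrophage-like cells, Atf4 itself (1.47), while Atf3 was lower in macrophage-like cells (0.805). The median log2 ratios of the list were 0.02 and 0.01. Metal-response genes had 1 of 5 in each class, the metallothionein Mt2 (1.35 and 1.60). Heat shock genes had 1 of 11 and 2 of 10, with Hspb1 at 1.28 and 1.26.

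Immediate early genes, which cells switch on within minutes of many stimuli, including tissue handling, were higher in the cKO library in the same classes. In mesenchymal-like cells 10 of 16 measured were at least 1.2-fold higher and none lower, with a median log2 ratio of 0.34, where 3.29% of all genes were higher by that fold. Egr3 had a ratio of 2.02, Nr4a1 1.91 and Egr1 1.49. Egr3, Nr4a1 and Fos were measured through their cKO level alone, and 7 of the 13 genes reaching 10 CPM in both libraries were higher. In macrophage-like cells 7 of 14 were higher (7.32% of all genes) and 2 lower (11.7%), with a median of 0.25, and Dusp1 had 1.89, Klf4 1.72 and Ier2 1.56. Their part in the differences of the antioxidant genes was not tested. Genotype, the mice used, the culture, its handling and the capture cannot be told apart with 1 library per group.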

How the data were processed

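Marrow cells were profiled by 10x Genomics 3′ single-cell RNA-seq in 1 WT and 1 cKO library. The deposited matrices are UMI counts without normalization, and their headers name Cell Ranger 7.1.0. The submitters' processing notes name mm10 (GRCm38) and Seurat. The sources used here do not say whether reads in introns count. The gene names, barcodes and other deposited columns were used only as identifiers, and 32235 of 32285 gene identifiers were found in GENCODE M21. The gene lists deposited with the WT and cKO samples are named for the opposite group but hold identical content, so the swap changes no value; matrices and barcodes are named for their own group. No cell annotation by the authors entered the analysis. The members and gene lists were chosen with earlier results of these data known.

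The cell filter required 500 genes and 1000 UMIs and allowed 15% of UMIs from mitochondrial genes; 8171 WT and 5506 cKO barcodes passed. Scrublet's own threshold marked 2 cells per library (0.0245% and 0.0363%), which had not worked, so cells were removed from the highest score down, at 0.8% per 1000 cells (534 in WT and 243 in cKO). Counts scaled to 10000 per cell were log-transformed and clustered jointly with scanpy 1.11.5 and leidenalg 0.10.2 (2000 variable genes without the 10 members, 30 principal components, 15 neighbours, Leiden resolution 0.5). Mesenchymal-like cells were re-clustered alike. The 3 macrophage clusters of the joint clustering served as subsets, since re-clustering them gave groups skewed to 1 library. A cluster took a class name from marker lists when at least 3 markers were 2-fold above the mean of the clusters (1.5-fold for states), by a scoring rule set after a look at the clusters. It stayed unnamed when its 10 leading genes held as many markers of another class, or if it was shallow with no own marker there.

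UMIs were summed per library and class and expressed as CPM. Each ratio (cKO over WT) has a 95% interval from the exact binomial split of the 2 counts, each level an exact Poisson interval and each share an exact Clopper-Pearson interval. These cover counting error only. No test across samples was possible, and no p-value is given. Genes reaching 10 CPM in at least 1 library were counted as measured, and log2 ratios used a prior of 1 CPM. Genes named are the 10 members, Slc31a1, up to 3 genes of each list with the largest absolute log2 ratio in each class, and the 5 most like the members' mean standardised level. Alternatives covered cell filters, depth, doublets, clustering, weights, scaling, the prior and the choice of cells. Leaving each state or cluster to stand alone was added after the data were seen.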

Additional observations from a re-analysis of the deposited data

Results flagged for a closer look

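Between macrophage-like and mesenchymal-like cells 3 genes had cKO over WT ratios on opposite sides of 1. In mesenchymal-like cells the interval of each ratio included 1. Each was the comparison of 1 library with 1 library, and the difference between the classes was not tested across samples. For Slc7a11 the ratio was 2.05 in macrophage-like and 0.988 in mesenchymal-like cells, a macrophage over mesenchymal value of 2.07 (95% interval 1.68 to 2.56, counting error only). For Gsr the ratios were 1.38 and 0.989, a value of 1.40 (1.31 to 1.49). For Nfe2l2 they were 0.846 and 1.02, a value of 0.827 (0.791 to 0.865).

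Within the 4 mesenchymal states with at least 100 cells in each library, Gsr ratios were 1.02 to 1.12. Its place below 1 over the whole class was thus not found in any of these 4 states. That range leaves out smaller states of the class, among them state 4, led by neutrophil transcripts (300 WT and 18 cKO cells). Slc7a11 had ratios under 1 in 2 of the 4 states. Over all mesenchymal-like cells the Gsr ratio was 1.07 with equal cluster weights and 1.02 in cells of at least 20000 UMIs, and 1.01 with doublet-scored cells kept or after scaling by the median ratio of all genes. The Slc7a11 ratio was 1.02 in the deep cells and 0.831 with equal weight per cell. Thus the side of 1 on which these genes lay in mesenchymal-like cells changed with the processing.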

How the results depend on the processing

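No paired analysis was possible because each group has 1 library. The median log2 ratio of the members ranged from 0.18 to 0.33 over 17 alternatives in mesenchymal-like cells, and from 0.47 to 0.53 over 16 in macrophage-like cells. It moved furthest with equal weight per cell (0.18) and in mesenchymal state 3 alone (0.33), where 7 members were at least 1.2-fold higher in place of 3. Nqo1 entered that count through its cKO level alone, and 6 of 9 were higher without it. Other counts were 3 or 4 in mesenchymal-like and 6 to 9 in macrophage-like cells. The Txnrd1 ratio in macrophage-like cells reversed to 0.849 in cells chosen by a Csf1r UMI and no Col1a1 UMI. That choice held 106 WT and 172 cKO cells, of which 63 and 102 were macrophage-like, 2.35% and 4.16% of that class. In those cells Slc7a11 had a ratio of 8.22, and Nqo1 had no WT UMI and so no ratio. In macrophage-like cells of at least 20000 UMIs Nqo1 had a ratio of 0.319. The cause of these shifts was not tested. Scaling moved the median of all genes by under 0.1 on the log2 scale. Depth limits Nqo1 and Slc7a11 in macrophage-like cells and most members in lymphoid cells.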

Other observations

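Clusters that took no class name also held some of the highest levels of single members. A cluster led by Vsig4, Cd163 and Vcam1 (73 WT and 74 cKO cells) had the highest Hmox1 levels of any class or cluster, 1050.5 CPM in WT against 1374 CPM in cKO, a ratio of 1.31 (1.15 to 1.49). A cluster with Gata3 and Il1rl1 among its leading genes (39 WT and 35 cKO cells) had the highest Gclc levels, 454 CPM in WT against 374 CPM in cKO, a ratio of 0.824, with a counting interval that included 1. A cluster led by Prss34 and Ccr2 (109 WT and 114 cKO cells) had Slc7a11 at 17.3 CPM in WT against 35.6 CPM in cKO, a ratio of 2.06 (1.26 to 3.49). Gsr in that cluster had a ratio of 1.59 (1.33 to 1.92) and Nfe2l2 0.825 (0.716 to 0.951).

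Among 11 WT and 8 cKO megakaryocyte-like cells Gclm was 314 against 511 CPM, a ratio of 1.63 (0.937 to 2.76). In B cell-like cells Gclc was 79.8 CPM in WT against 66.3 CPM in cKO, a ratio of 0.831 (0.416 to 1.61), and in T or NK cell-like cells it was 76.2 against 71.6 CPM.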
